A study of Mus musculus with 3 samples.

Results

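Plac8, Apoe, Gpx3, Mgp, Ace, Cpz, Slco2b1 and Hmcn2 are 8 of the 31053 features listed for 3 droplet libraries of mouse dorsal skin in which RNA was counted cell by cell. They were picked because earlier results on the same libraries showed each of them to be low in fibroblast-like cells of the YAP/TAZ knockout or of old skin. Their low values there are therefore a description of how they were chosen and support nothing. What the choice did not use is their level in the other cell classes. The knockout library came from a mouse skin of 2.5 months carrying R26-CAG-CreER with floxed Yap1 and Wwtr1 alleles, where CAG is a promoter active in nearly all cells and CreER is a recombinase that tamoxifen activates. The old control was wild-type, 24 months old and untreated. The young control was 2.5 months old, carried the same floxed alleles without the recombinase, and received tamoxifen as the knockout did, at 0.11 mg per g body weight by gavage on 2 days a week for 4 weeks. Each group had 1 library, and the number of animals behind a library is not given, so differences carry no replicate check and no p-value. Knockout and young control differ in the recombinase. Old and young control differ in age, in the floxed alleles and in tamoxifen, and these cannot be told apart.

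Most of the proteins these genes encode act outside the cell or at its surface. Apoe encodes apolipoprotein E, which carries cholesterol and other lipids between cells and is taken up by receptors at the cell surface. Gpx3 encodes a secreted glutathione peroxidase, a selenium-containing enzyme that reduces peroxides in extracellular fluid. Mgp encodes matrix Gla protein, a vitamin K dependent inhibitor of soft tissue calcification that also binds bone morphogenetic proteins. Ace encodes angiotensin-converting enzyme, a membrane peptidase that makes angiotensin II and breaks down bradykinin, and endothelium is its best known site. Cpz encodes carboxypeptidase Z, a secreted enzyme with a Frizzled-like domain that binds Wnt proteins. Slco2b1 encodes a membrane transporter that takes up organic anions. Hmcn2 encodes hemicentin 2, a large extracellular matrix protein. Plac8 encodes a small cysteine-rich protein known from placenta and from myeloid cells. YAP and TAZ, the products of Yap1 and Wwtr1, are transcriptional co-activators that work mainly through TEAD factors and respond to mechanical cues.

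Values are counts of unique molecular identifiers (UMIs), 1 per captured RNA molecule read at its 3' end, summed over the cells of a class and given per 1000000 UMIs of that sum (CPM). They are not scaled by gene length. Intervals are exact at 95% and cover counting error only. The deposited libraries held 25348 barcodes and 57767761 UMIs (knockout), 22108 barcodes and 52579262 UMIs (old control) and 15290 barcodes and 95274423 UMIs (young control). The knockout library stood apart in quality, with a median of 18.6% mitochondrial UMIs per barcode against 9.41% in the old and 5.58% in the young control. After filtering and removal of likely doublets 8655, 11108 and 10784 cells remained for knockout, old and young control. Pairs of libraries shared 55 (knockout and old), 43 (knockout and young) and 46 (old and young) cell barcodes after filtering. Clusters left without a name for want of clear markers held 65.8% of knockout, 45.4% of old and 12.2% of young cells. In fibroblast-like cells, over the 6093 genes with a mean of at least 20 CPM, the median log2 ratio to the young control was 0.17 for the knockout and 0.049 for old skin. A gene met the size rule with a ratio of 2 or more, or of 0.5 or less, whose interval also lay wholly beyond a 1.5-fold difference.

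Fibroblast-like cells were defined by 12 markers, all 12 of which were detected in each library, and comprised 144 knockout, 315 old and 2375 young cells. That was 1.66%, 2.84% and 22.02% of the cells kept in the knockout, old and young libraries, counting named clusters only. The median depth of these cells was alike, at 6361, 6129 and 5796 UMIs for knockout, old and young. The 12 markers summed to 49974 CPM in the knockout, 54908 CPM in the old and 91433 CPM in the young control. Markers of other cell types moved with the libraries as well: the 12 of keratinocytes, none at 0, summed to 258, 808 and 1402 CPM in knockout, old and young cells, and the 10 of pericytes or smooth muscle, none at 0, to 639, 337 and 432 CPM. The 9 of macrophages or monocytes, a known source of Apoe and Plac8, summed to 22.6 CPM in the knockout (4 at 0, among them C1qb, Adgre1 and Mrc1), 31.5 CPM in the old (4 at 0, the same 3 among them) and 108 CPM in the young control (0 at 0). What part such RNA had in the values below was not tested. The labels were checked on the targeted genes. Wwtr1 stood at 22.6 CPM in knockout fibroblast-like cells, against 117 in old and 125 in young ones. Yap1 did not separate the libraries, at 50.3 CPM in the knockout, 53.2 in the old and 58.7 in the young control. Where the floxed exons lie is not given here, and a count at the 3' end outside them checks nothing. Xist, the RNA of the inactive X chromosome, was at 0 UMIs in knockout fibroblast-like cells but at 1002 CPM in old and 1065 CPM in young ones, while Y-linked Ddx3y was at 131 CPM in the knockout and at 0 UMIs in both controls. The knockout library is thus male by these genes and both controls are female, and sex and genotype cannot be told apart for any of the 8 genes.

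Levels of the 8 genes in fibroblast-like cells fell into a group low in both knockout and old skin and a group low in the knockout alone. Plac8, Apoe, Gpx3 and Ace were low in both. Plac8 gave 0 UMIs in knockout fibroblast-like cells, 12 UMIs (6.19 CPM) in old ones and 1445 UMIs (101 CPM) in young ones. With 3 counts as the limit that 0 allows, the knockout was at least 32.6-fold lower than young cells, and the old-to-young ratio was 0.0616 (0.0317 to 0.108). Apoe, the most abundant of the 8, stood at 3321 CPM in knockout, 2300.3 CPM in old and 8925 CPM in young fibroblast-like cells. Its ratio to the young control was 0.372 (0.359 to 0.385) for the knockout and 0.258 (0.25 to 0.266) for old skin, so the old value was the lower of the pair. Gpx3 stood at 597 CPM in the knockout, 523 CPM in the old and 2417 CPM in the young control, with ratios to young of 0.247 (0.227 to 0.268) and 0.217 (0.203 to 0.231) for knockout and old. Ace was sparse in knockout and old cells, with 17 UMIs (17.5 CPM) in the knockout, 30 UMIs (15.5 CPM) in the old and 1117 UMIs (77.8 CPM) in the young control. Its ratios to young were 0.225 (0.130 to 0.361) for the knockout and 0.199 (0.134 to 0.286) for old skin, with overlapping intervals.

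Cpz and Slco2b1 were low in the knockout and level between old and young skin. Cpz gave 30 UMIs (30.8 CPM) in knockout, 426 UMIs (219.9 CPM) in old and 3149 UMIs (219 CPM) in young fibroblast-like cells. The knockout-to-young ratio of Cpz was 0.141 (0.0947 to 0.201) and its old-to-young ratio was 1.0 (0.905 to 1.11). Slco2b1 gave 24 UMIs (24.7 CPM) in the knockout, 349 UMIs (180.2 CPM) in the old and 2629 UMIs (183 CPM) in the young control, which are ratios to young of 0.135 (0.0862 to 0.201) and 0.985 (0.878 to 1.10) for knockout and old. Mgp and Hmcn2 lay between these patterns. Mgp stood at 46.2 CPM in the knockout, 139.9 CPM in the old and 264 CPM in the young control, with ratios of 0.175 (0.127 to 0.234) for the knockout and 0.529 (0.466 to 0.599) for old skin. Hmcn2 gave 8 UMIs (8.22 CPM) in the knockout, 122 UMIs (63.0 CPM) in the old and 1570 UMIs (109 CPM) in the young control, with ratios of 0.0752 (0.0324 to 0.149) and 0.576 (0.475 to 0.693) for knockout and old. By the size rule 8 of 8 genes were lower in the knockout, where 3.82% of all 6093 genes were, and 4 of 8 were lower in old skin, where 2.15% were. The genes were chosen on these contrasts, so nothing is read from the counts. With trimmed mean (TMM) scaling, 34.8% of all genes past the rule in the knockout were higher, against 52.2% without it, and for old skin 33.7% against 45.0%. Under TMM the count for the old control was 5 of 8.

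**Figure D1:**
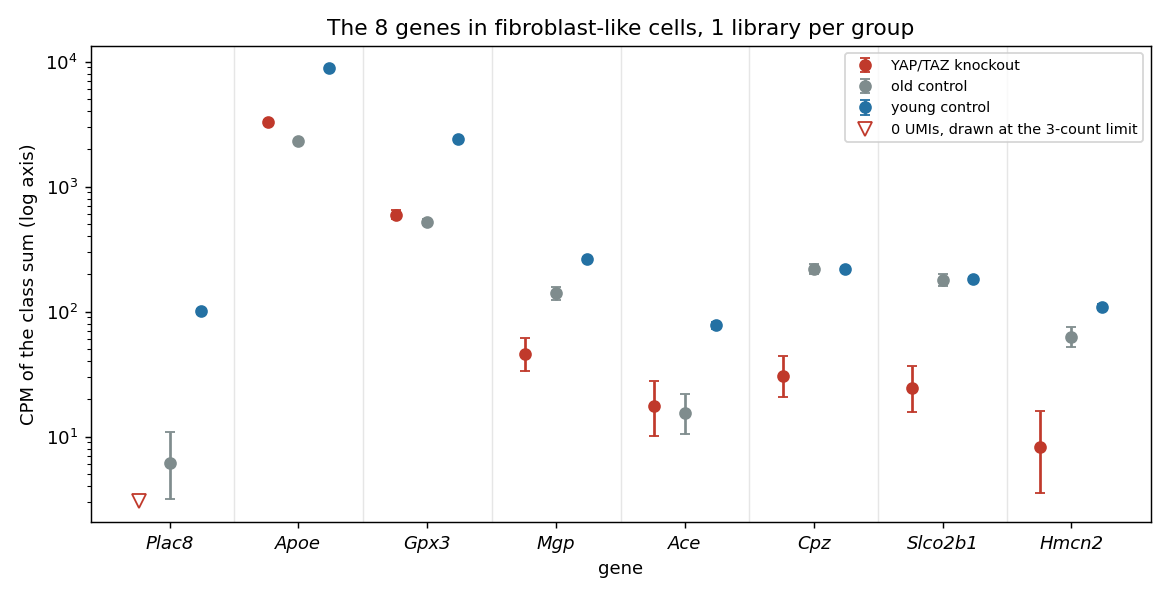
Level of each of the 8 genes in fibroblast-like cells (CPM of the class sum, log axis), with knockout, old control and young control from left to right for each gene. Bars are exact 95% Poisson intervals, and the open triangle marks the 0 UMIs of Plac8 in the knockout at the limit of 3 counts. Cpz and Slco2b1 are level between the 2 controls, while Apoe, Gpx3, Ace and Plac8 are low in both knockout and old cells.

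Shares of cells with a UMI were compared after each cell was thinned to 1500 UMIs, which left out 1 knockout, 13 old and 35 young fibroblast-like cells. Cpz was seen in 4.2% of thinned knockout cells (1.56 to 8.91), 23.2% of old cells (18.5 to 28.4) and 23.4% of young cells (21.7 to 25.1), against 18.1%, 44.8% and 51.6% before thinning. Slco2b1 was seen in 4.2% of thinned knockout, 20.2% of old and 22.9% of young cells, against 15.3%, 56.8% and 59.1% unthinned. Both genes were thus seen far less often in knockout cells, and about equally often in the 2 controls. Apoe reached 76.9%, 69.5% and 90.9% of thinned knockout, old and young cells (94.4%, 91.7% and 98.3% unthinned), and Gpx3 28.0%, 26.5% and 56.7% (38.2%, 35.2% and 69.9% unthinned). The other 4 genes were rare everywhere. Plac8 was seen in 0 of 143 thinned knockout cells, which allows a share of up to 2.10%, in 0.662% of old and in 6.32% of young cells, against 0%, 1.59% and 11.7% unthinned. Mgp was seen in 3.50%, 5.63% and 10.4% of thinned knockout, old and young cells (4.86%, 6.03% and 17.1% unthinned). Ace was seen in 1.40%, 1.99% and 7.82% (7.64%, 3.49% and 18.4% unthinned), and Hmcn2 in 1.40%, 3.64% and 6.84% (4.86%, 6.35% and 14.7% unthinned).

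T, NK or innate lymphoid-like cells served as the background for free RNA, at median depths of 4072.5, 3333 and 2883 UMIs in knockout, old and young skin. Cpz, Slco2b1 and Hmcn2 were seen in at most 2.63% of these cells in any library after thinning, and the 2.63% was Hmcn2 in 76 knockout cells. For Hmcn2 the knockout fibroblast-like share was at or below this background. Ace was seen in 7.89% of knockout, 7.78% of old and 1.82% of young lymphoid-like cells, but all 15 knockout and 81 of the 84 old UMIs lay in cluster 21, 1 of the 2 lymphoid-like clusters, so these shares are not read as background. Plac8 in old fibroblast-like cells, at 0.662%, was close to the 0.556% of old lymphoid-like cells. Apoe was seen in 21.1%, 44.7% and 67.5% of knockout, old and young lymphoid-like cells, and Gpx3 in 1.32%, 1.39% and 11.5%. Mgp was seen in 2.63%, 0.833% and 3.45% of knockout, old and young lymphoid-like cells. The Apoe and Gpx3 shares of lymphoid-like cells were highest in the young control. By level, however, Apoe was highest in old lymphoid-like cells, at 1562 CPM against 256 CPM in knockout and 845 CPM in young ones. Cluster 21 held 53 of its 86 knockout and 2145 of its 2562 old UMIs, so the Apoe shares are not read as background either. An estimate of free RNA from 12 markers came to 6.36% of fibroblast-like UMIs for the knockout, 5.75% for old and 12.0% for young skin, and after its subtraction the counts past the size rule were again 8 for the knockout and 4 for old skin. Since the genes were chosen on these contrasts, nothing is read from these counts.

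**Figure D2:**
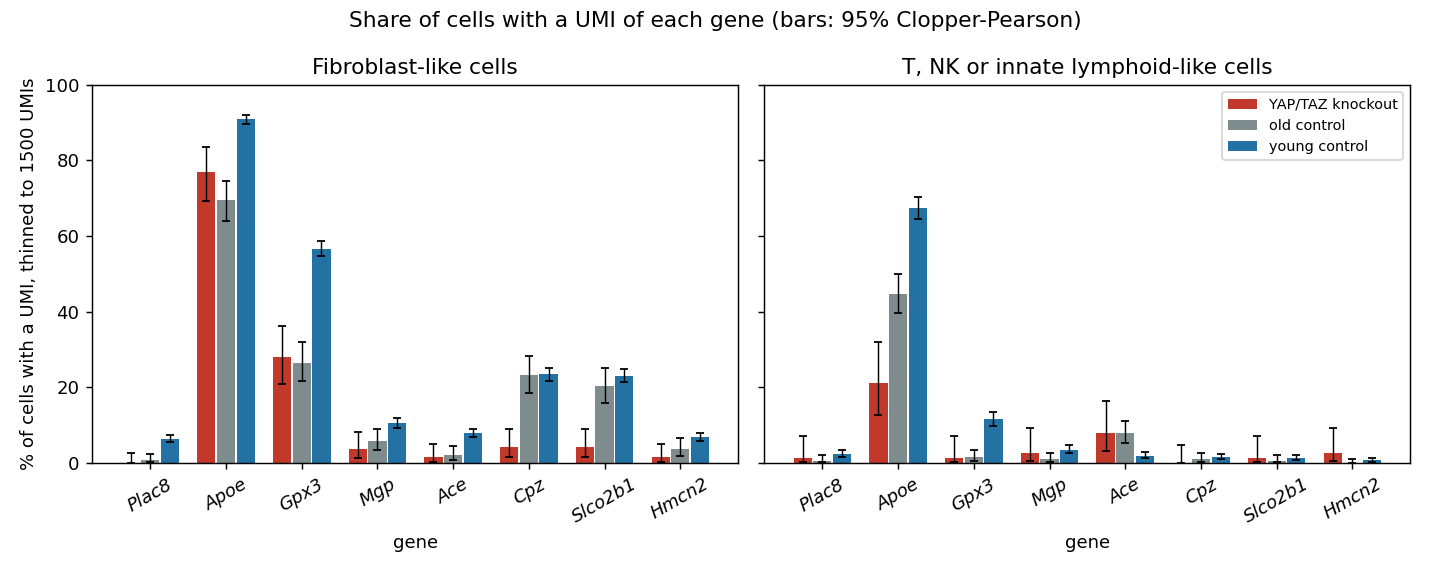
Percentage of cells with at least 1 UMI of each gene after thinning to 1500 UMIs per cell, in fibroblast-like cells (left panel) and among T, NK or innate lymphoid-like cells (right panel). Bars stand for knockout, old control and young control from left to right, with 95% Clopper-Pearson intervals. In lymphoid-like cells Apoe is seen most often, and the next highest share is the 11.5% of Gpx3 in the young control.

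The UMIs of 4 genes were spread over many fibroblast-like cells and those of the other 4 were concentrated in few. In the young control the 10% of cells with the most UMIs of a gene held 35.3% of Apoe, 43.3% of Gpx3, 43.8% of Cpz and 35.7% of Slco2b1. They held 97.2% of Plac8, 95.6% of Mgp, 92.9% of Hmcn2 and 81.0% of Ace. A single young cell gave up to 287 of the 3797 Mgp UMIs. In knockout cells 1 cell gave 19 of the 45 Mgp UMIs, and in old cells 1 cell gave 84 of 271. No knockout cell gave more than 2 UMIs of Cpz, Slco2b1 or Hmcn2.

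The fibroblast-like class was made of 3 clusters, built without the 8 genes, and the libraries filled them unequally. Cluster 2, led by the collagen genes Col1a2 and Col1a1 and by Mfap4, held 45.1% of knockout, 61.3% of old and 53.3% of young fibroblast-like cells. Cluster 18, led by Ifi205, Dpt and the complement gene C3, held 9.03% of knockout, 10.2% of old and 33.3% of young cells, or 13, 32 and 791 cells. Cluster 22, led by Coch, Fmod and Tnmd, held 45.8% of knockout, 28.6% of old and 13.4% of young cells. Of the 5 marker sets for fibroblast subsets, that of Coch-positive elastin-rich cells scored highest in cluster 22 and that of C3-high cells in cluster 18. Plac8, Ace and Hmcn2 belonged to cluster 18. In the young control they stood there at 261, 201 and 268 CPM, against 4.30, 3.74 and 11.5 CPM in cluster 2 and 3.98, 2.28 and 24.5 CPM in cluster 22. Apoe and Gpx3 were also highest in cluster 18 of the young control, and Cpz was highest in cluster 2, at 342 CPM against 96.3 CPM in cluster 18 and 89.9 CPM in cluster 22.

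Cpz and Slco2b1 had low knockout ratios within each cluster. In cluster 2, Cpz stood at 53.2 CPM in the knockout, 303 CPM in the old and 342 CPM in the young control. Its knockout-to-young ratio was 0.155 (0.0983 to 0.234) in cluster 2, 0.30 (0.0617 to 0.882) in cluster 18, from 3 UMIs, and 0.102 (0.0274 to 0.266) in cluster 22, from 4 UMIs. The interval in cluster 18 was too wide for the size rule. Slco2b1 stood at 34.7 CPM in knockout, 206 CPM in old and 202 CPM in young cells of cluster 2. Ratios of Slco2b1 in the knockout were 0.172 (0.0960 to 0.285), 0.199 (0.0541 to 0.511) and 0.156 (0.0497 to 0.373) in clusters 2, 18 and 22, and old-to-young ratios were 1.02, 0.998 and 1.39. For Cpz in old skin, cluster 22 stood apart with 23.9 CPM against 89.9 CPM in the young control, a ratio of 0.266 (0.130 to 0.489), while clusters 2 and 18 gave 0.885 and 1.58.

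Apoe and Gpx3 differed less within clusters than in the class as a whole in the knockout. Apoe stood at 4226 CPM in knockout, 2788 CPM in old and 7922 CPM in young cells of cluster 2. Its knockout-to-young ratios were 0.533, 0.528 and 0.839 in clusters 2, 18 and 22, none of which met the size rule, against 0.372 in the class. Old-to-young ratios of Apoe were 0.352 (0.340 to 0.364) in cluster 2, 0.173 (0.158 to 0.189) in cluster 18 and 0.524 (0.475 to 0.577) in cluster 22. Gpx3 gave knockout-to-young ratios of 0.518, 0.567 and 0.95, and old-to-young ratios of 0.330, 0.476 and 0.417, in clusters 2, 18 and 22. In cluster 18 Gpx3 stood at 2715 CPM in the knockout, 2278 CPM in the old and 4787 CPM in the young control.

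Genes of cluster 18 differed from each other in how they behaved there. The cluster itself was not uniform when each library was clustered alone. In the young control 274 of its cells, led by Thbs4, held 1272 of its 1407 Plac8 and 1302 of its 1444 Hmcn2 UMIs. Of its 13 knockout cells 11 fell into a cluster led by Clec3b, and of its 32 old cells 16 into one led by Thbs4. Ratios of Plac8 and Hmcn2 within cluster 18 thus do not hold the mix of cells fixed. Plac8 gave 0 UMIs in the 13 knockout cells of cluster 18, at least 9.03-fold lower than young cells, and 50.6 CPM in the old control, a ratio of 0.194 (0.0966 to 0.348) to the 261 CPM of young cells. Hmcn2 gave 1 UMI (9.63 CPM) in knockout cells of cluster 18, a ratio of 0.0359 (0.00091 to 0.201). In old cells of the same cluster it stood at 552 CPM, above the 268 CPM of young cells, with a ratio of 2.06 (1.70 to 2.49). That ratio rests on 120 UMIs in 32 old cells. A single old cell gave 31 of the 122 Hmcn2 UMIs of the class, and the ratio without it was not computed. Ace stood at 116 CPM in knockout, 138 CPM in old and 201 CPM in young cells of cluster 18. Its ratios of 0.574 (0.295 to 1.01) and 0.686 (0.460 to 0.984) for knockout and old did not meet the size rule, and in cluster 18 lay 12 of the 17 knockout UMIs and all 30 old UMIs of Ace. Mgp met the size rule in the knockout in cluster 22 and, from 1 UMI, in cluster 2. It gave 3 UMIs (6.86 CPM) in knockout cells of cluster 22, against 255 CPM in old and 490.1 CPM in young cells, a knockout-to-young ratio of 0.0140 (0.00288 to 0.0411). In cluster 18 Mgp stood at 395 CPM in the knockout, 299 CPM in the old and 493 CPM in the young control. The interval of the knockout ratio there, 0.801 (0.574 to 1.09), included 1. That ratio rests on 41 UMIs in 13 knockout cells. A single knockout cell gave 19 of the 45 Mgp UMIs of the class, and the ratio without it was not computed.

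By the size rule the genes lower in the knockout were Mgp, Cpz and Slco2b1 in cluster 2 (3.1% of all genes there), Plac8, Slco2b1 and Hmcn2 in cluster 18 (1.98%), and Mgp, Cpz and Slco2b1 in cluster 22 (2.4%). In the old control they were Apoe and Gpx3 in cluster 2 (1.94%), Plac8, Apoe and Gpx3 in cluster 18 (1.38%), and Cpz in cluster 22 (1.65%); Hmcn2 in cluster 18 was higher (1.92%). When each library was given the young control's proportions of the 3 clusters, 4 of 8 genes were lower in the knockout (3.77% of all genes), namely Plac8, Cpz, Slco2b1 and Hmcn2, and 3 of 8 in old skin (1.76%), namely Plac8, Apoe and Gpx3. The knockout ratios of Apoe, Gpx3, Mgp and Ace were then 0.539, 0.556, 0.568 and 0.621, and the old ratio of Hmcn2 was 1.90. Those of Cpz and Slco2b1 were 0.176 and 0.182 in the knockout. This reweighting leans on the 13 knockout and 32 old cells of cluster 18 and does not hold the mix of cells within that cluster fixed. Without cluster 18, 5 of 8 genes were lower in the knockout (3.27%) and 2 of 8 in old skin (1.53%).

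**Figure D3:**
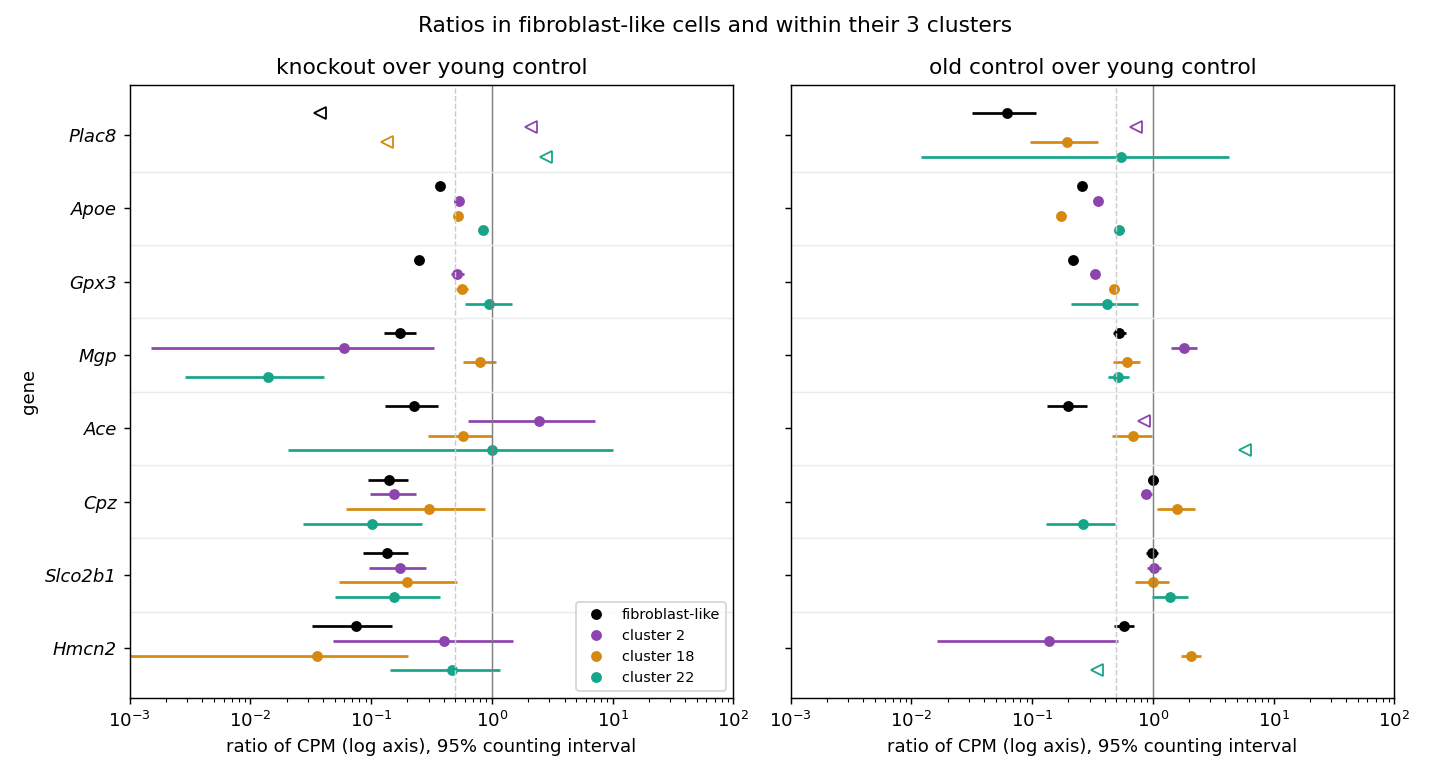
Ratio of each gene's CPM to the young control in the fibroblast-like class (black) and within clusters 2, 18 and 22, for the knockout (left panel) and the old control (right panel), on a log axis. Lines are exact 95% counting intervals, open triangles mark the upper bound where the compared library gave 0 UMIs, the solid line marks a ratio of 1 and the dashed line 0.5. Cpz and Slco2b1 lie left of 0.5 for the knockout in each cluster, whereas Apoe and Gpx3 lie right of it within clusters.

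Because Cpz and Slco2b1 had knockout ratios under 0.5 in each of the 3 clusters and were level in old skin over the class, the bases upstream of their starts are shown. Cpz lies on chromosome 5, from 35502218 to 35525698 on the minus strand of GRCm38, and its longest coding transcript has 11 exons. Slco2b1 lies on chromosome 7, from 99657804 to 99711340 on the minus strand, has a longest coding transcript of 14 exons and overlaps the antisense genes Gm15635 and Gm34280. The sequences are the 250 bases before a start in RefSeq on GRCm38.p6, read 5′ to 3′ on the gene's strand, and capitals mark the only matches in them to the motifs searched.
Cpz, chr5:35525627-35525876, minus strand, with a GC box on the opposite strand: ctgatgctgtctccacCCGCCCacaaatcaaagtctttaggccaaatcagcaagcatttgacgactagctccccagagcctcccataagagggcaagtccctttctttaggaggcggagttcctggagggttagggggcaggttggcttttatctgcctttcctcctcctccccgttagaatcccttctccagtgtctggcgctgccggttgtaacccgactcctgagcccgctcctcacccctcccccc
Slco2b1 outermost start, chr7:99711341-99711590, minus strand, with no match: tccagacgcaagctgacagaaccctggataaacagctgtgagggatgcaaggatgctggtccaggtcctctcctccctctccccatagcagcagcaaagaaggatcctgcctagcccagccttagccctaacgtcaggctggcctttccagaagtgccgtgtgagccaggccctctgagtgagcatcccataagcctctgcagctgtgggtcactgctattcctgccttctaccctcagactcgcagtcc
Slco2b1 inner start, chr7:99706843-99707092, minus strand, with a TEAD core: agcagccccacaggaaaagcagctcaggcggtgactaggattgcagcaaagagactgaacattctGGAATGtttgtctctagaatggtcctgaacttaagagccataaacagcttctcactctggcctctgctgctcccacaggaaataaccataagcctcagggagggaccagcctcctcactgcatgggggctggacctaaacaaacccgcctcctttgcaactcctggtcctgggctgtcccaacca
The TEAD core searched was GGAATG, on both strands, and it was held by 12.6% of the 32851 windows of the same length in the RefSeq table. Among 13 windows that matched 7 of the 8 genes it was held by 3, of which 2 belonged to inner starts of Slco2b1 and 1 to an inner start of Apoe. The AP-1 motif TGANTCA was held by 6.75% of all windows and by 1 of the 13, upstream of Hmcn2. The E-box CACGTG was held by 6.02% of all windows and by 0 of the 13, and the GC box GGGCGG by 32.7% and by 3, upstream of Ace, Cpz and Gpx3. A match is a description of letters, and binding was not measured.

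Among named clusters, clustering each library alone separated fibroblast-like cells further in the young control only. In the old library a cluster of 866 cells led by Cyp2f2, Pcolce2 and Efemp1 also scored highest for fibroblast markers. It was left unnamed because its markers were mixed. Of its cells 629 lay in unnamed cluster 0, outside the fibroblast-like class of the joint clustering. What these cells would add to the old values was not tested. In the knockout it joined 65 cells of cluster 2 with 11 of cluster 18. In the old control it joined 188 cells of cluster 2, 56 of cluster 22 and 16 of cluster 18. In the young control, 274 cells led by Thbs4, Smpd3 and Mmp3, all of them from cluster 18, had Plac8 at 585 CPM, Hmcn2 at 599 CPM, Ace at 332 CPM and Mgp at 864 CPM, and Cpz at only 29.4 CPM. A second group of 570 cells, led by Dpep1 and C3 and drawn mostly from cluster 18, had Apoe at 15935 CPM, Gpx3 at 4763 CPM and Slco2b1 at 232 CPM, with Plac8 at 32.6 CPM and Hmcn2 at 28.8 CPM. Cpz was highest, at 381 CPM, in the 1060 cells led by Col1a1. Mgp reached 1625 CPM in 195 cells led by Apod and Ebf2, of which 163 lay in cluster 30 of the joint clustering, left unnamed. In cluster 30 Mgp stood at 646 CPM in 41 knockout, 233 CPM in 47 old and 704 CPM in 164 young cells. The knockout library alone gave 85 cells led by Clec3b and Cyp2f2, with Apoe at 4695 CPM, Gpx3 at 939.9 CPM, Cpz at 49.1 CPM and Plac8 at 0 UMIs, and 166 cells led by F13a1 and Coch, with Mgp at 241 CPM and Cpz at 8.61 CPM. Of these 166 cells 58 lay in cluster 22 and 36 in unnamed cluster 15. Another 34 lay in dermal papilla or sheath-like cluster 9 and 13 in Schwann or glial-like cluster 14. The 166 cells held 140 Mgp UMIs, whereas all knockout cells of cluster 22 held 3. The old library alone gave 265 cells led by Cyp2f2, with Apoe at 2384 CPM, Cpz at 241 CPM, Slco2b1 at 189 CPM, Hmcn2 at 11.9 CPM and Ace at 1.14 CPM. No group led by Thbs4 was named in the knockout or old library. In the old library 16 of the 32 cells of cluster 18 fell into a cluster of 210 cells led by Thbs4 and Myoc, which was left unnamed because its markers were mixed. With libraries clustered alone 8 genes were lower in the knockout and 6 in old skin, where the ratio of Ace was 0.0149 and that of Hmcn2 0.115. These sums keep the 274 young cells led by Thbs4 but leave out the unnamed old cluster led by Thbs4. The sets of cells are thus unlike, and nothing is read from these counts and ratios.

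**Figure D4:**
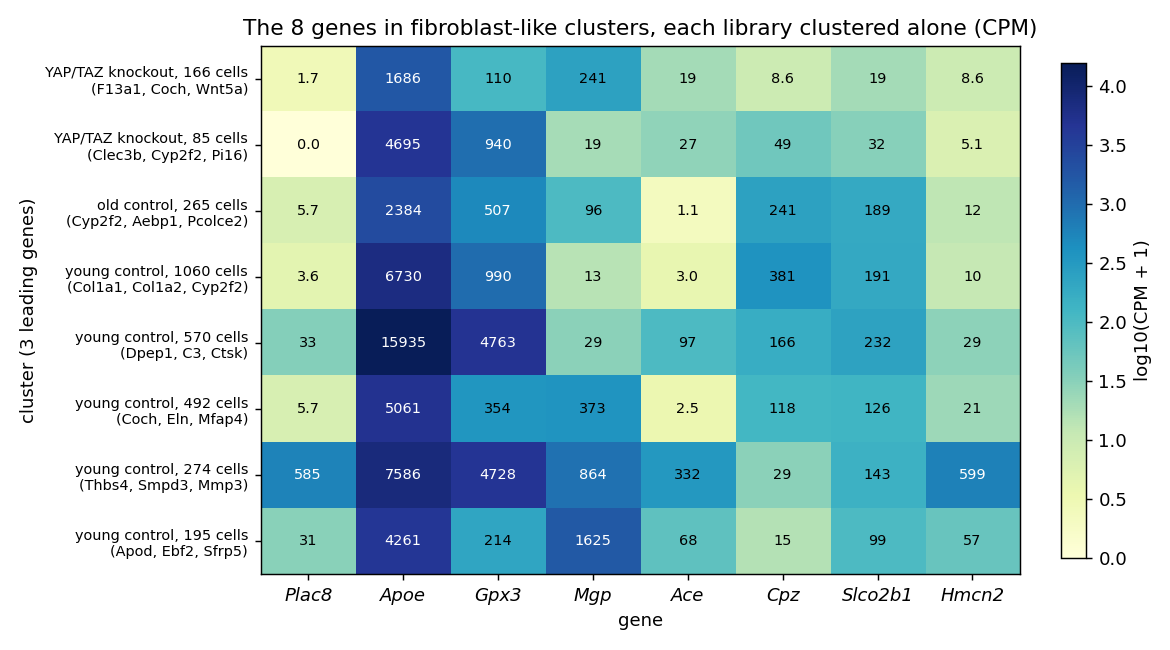
Level of each gene (CPM, printed in each cell, colour on a log10 scale) in the fibroblast-like clusters found when each library was clustered by itself, with knockout clusters at the top, the old control cluster next and young control clusters below. Plac8, Ace and Hmcn2 are highest in the 274 young cells led by Thbs4, and Cpz in the 1060 young cells led by Col1a1.

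Outside fibroblast-like cells, the levels of each gene were not part of how it was chosen. Cpz was nearly confined to fibroblast-like cells: in the other classes with at least 50 cells in a library it was at or below 14.7 CPM. Plac8, by contrast, was highest in dendritic or Langerhans-like cells of the young control, at 157 CPM (40.1 CPM in old skin), and in pericyte or smooth muscle-like cells, at 17.2 CPM in the knockout, 68.3 CPM in the old and 97.3 CPM in the young control. The knockout-to-young ratio of Plac8 in pericyte or smooth muscle-like cells was 0.177 (0.124 to 0.247), where 6.79% of all genes were lower. Knockout and young cells of this class came mostly from different clusters, 10 and 24. Cluster 10 held 14 of the 43 knockout and 8 of the 206 young Plac8 UMIs. The ratio within it, 0.614 (0.240 to 1.69), did not meet the size rule. Hmcn2 was also found in pericyte or smooth muscle-like cells, at 51.6 CPM in the knockout, 21.1 CPM in the old and 67.1 CPM in the young control. The old-to-young ratio of Hmcn2 there was 0.315 (0.178 to 0.522), where 5.18% of genes were lower. Its clusters differed for the knockout, with 36.3 CPM in knockout, 24.4 CPM in old and 117 CPM in young cells of cluster 10, against 120.5, 10.4 and 41.4 CPM in knockout, old and young cells of cluster 24.

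Among the named classes, Mgp and Ace had their highest levels in vascular endothelial-like cells of the knockout. This class leaves out clusters 1 and 4, which scored highest for vascular endothelial markers but were left unnamed. Cluster 1 held 1627 knockout, 1 old and 0 young cells, and cluster 4 held 1210, 48 and 7. Mgp stood at 1256 CPM in knockout, 109.6 CPM in old and 358 CPM in young vascular endothelial-like cells. The knockout was higher than the young control with a ratio of 3.51 (3.15 to 3.90), where 1.36% of genes were higher, and the old control was lower with a ratio of 0.306 (0.251 to 0.369), where 5.26% were lower. These UMIs came from few cells, 21 of 92 knockout, 30 of 347 old and 88 of 633 young ones, and without the cell that gave most UMIs in each library the levels were 967, 83.0 and 268 CPM. In dermal papilla or sheath-like cells Mgp stood at 112 CPM in the knockout, 14.7 CPM in the old and 18.9 CPM in the young control, a knockout-to-young ratio of 5.91 (4.6 to 7.68) between cells of cluster 9 (knockout) and cluster 3 (controls), where 5.42% of genes were higher. Ace stood at 236 CPM in knockout, 159 CPM in old and 141 CPM in young vascular endothelial-like cells and did not meet the size rule. Among T, NK or innate lymphoid-like cells Ace stood at 44.7 CPM in the knockout, 51.2 CPM in the old and 13.0 CPM in the young control, with ratios to young of 3.43 (1.78 to 6.23) and 3.93 (2.72 to 5.72) for knockout and old, where 2.93% and 3.33% of genes were higher. The libraries filled the 2 clusters of this class unequally: cluster 21, led by Trdc, held 38 of 76 knockout, 295 of 457 old and 175 of 1188 young cells, and cluster 6 the rest. Within cluster 21 Ace stood at 97.1 CPM in the knockout, 89.3 CPM in the old and 45.7 CPM in the young control, with ratios of 2.13 (1.04 to 4.19) and 1.96 (1.24 to 3.20) for knockout and old, and within cluster 6 it gave 0, 3 and 23 UMIs. The size rule was met in neither cluster. Ace overlaps an antisense gene, Gm11651.

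Slco2b1 was also expressed in endothelial classes. In vascular endothelial-like cells it stood at 68.0 CPM in the knockout, 103 CPM in the old and 104 CPM in the young control, and in lymphatic endothelial-like cells at 73.4, 118 and 148 CPM. None of these ratios met the size rule, whereas the knockout ratio in fibroblast-like cells was 0.135; the difference between the classes was not tested. Mast-like cells of the young control had Slco2b1 at 107.5 CPM. Gpx3 stood at or below 174 CPM in every other class and library with at least 50 cells. It stood at 48.6 CPM in the knockout, 162 CPM in the old and 170.5 CPM in the young control in dermal papilla or sheath-like cells, and at 5.96, 15.9 and 85.0 CPM among T, NK or innate lymphoid-like cells. Over all cells kept Gpx3 stood at 77.1 CPM in the knockout, 82.3 CPM in the old and 466 CPM in the young library, so its level in lymphoid-like cells moved with the level of the library, and what part free RNA had in it was not tested.

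Apoe was expressed in every class. Sebocyte-like cells had the highest level among classes of at least 50 cells, at 6611 CPM in the knockout, 12899 CPM in the old and 13058 CPM in the young control. The knockout cells came mostly from another cluster, 219 of 232 from cluster 32, while cluster 13 held 845 of 846 old and all 194 young cells. Within cluster 13 Apoe stood at 13996 CPM in 13 knockout cells, 12892 CPM in old and 13058 CPM in young cells. Keratinocyte-like cells stood at 6678 CPM in old and 4720 CPM in young skin. In 3 classes Apoe was higher in old than in young skin by the size rule, opposite to fibroblast-like cells. Dermal papilla or sheath-like cells, with a ratio of 1.78, and lymphoid-like cells, with 1.85, lay above 1 but short of it. Vascular endothelial-like cells stood at 2607 CPM in old and 1045 CPM in young skin, a ratio of 2.50 (2.37 to 2.63), where 3.56% of genes were higher. Lymphatic endothelial-like cells stood at 1579 and 494 CPM in old and young skin, a ratio of 3.19 (3.0 to 3.41), where 2.06% were higher. Pericyte or smooth muscle-like cells stood at 2793 and 850 CPM in old and young skin, a ratio of 3.29 (3.09 to 3.50), where 3.55% were higher. Most old cells of this class lay in cluster 10, 294 of 341, and most young ones in cluster 24, 326 of 401. In cluster 24 a single old cell gave 49.0% of the Apoe UMIs, and leaving out each library's top cell gave 1259 CPM in old and 879 CPM in young cells, short of 2-fold. In the knockout these classes stood at 626, 522 and 914 CPM. The Apoe level over all cells kept was 2651 CPM in the knockout, 5261 CPM in the old and 4798 CPM in the young library. What part depth and free RNA had in the old-to-young ratios of these classes was not tested. Macrophage or monocyte-like cells, a known source of apolipoprotein E, reached 50 cells in the young control only. Their cluster 31 had Apoe at 31965 CPM in 40 knockout cells, 6966 CPM in 27 old cells and 3662 CPM in 184 young cells, so the knockout was higher there, where 2.92% of genes were, and lower in fibroblast-like cells; the difference between the cell types was not tested. A single knockout cell gave 44.0% of these Apoe UMIs, and without it the level was 19543 CPM. Plac8 had a like contrast in cluster 20, dendritic or Langerhans-like, with 1251 CPM in 23 knockout cells, 114 CPM in 134 old cells and 276 CPM in 546 young cells, where 2.86% of genes were higher in the knockout.

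**Figure D5:**
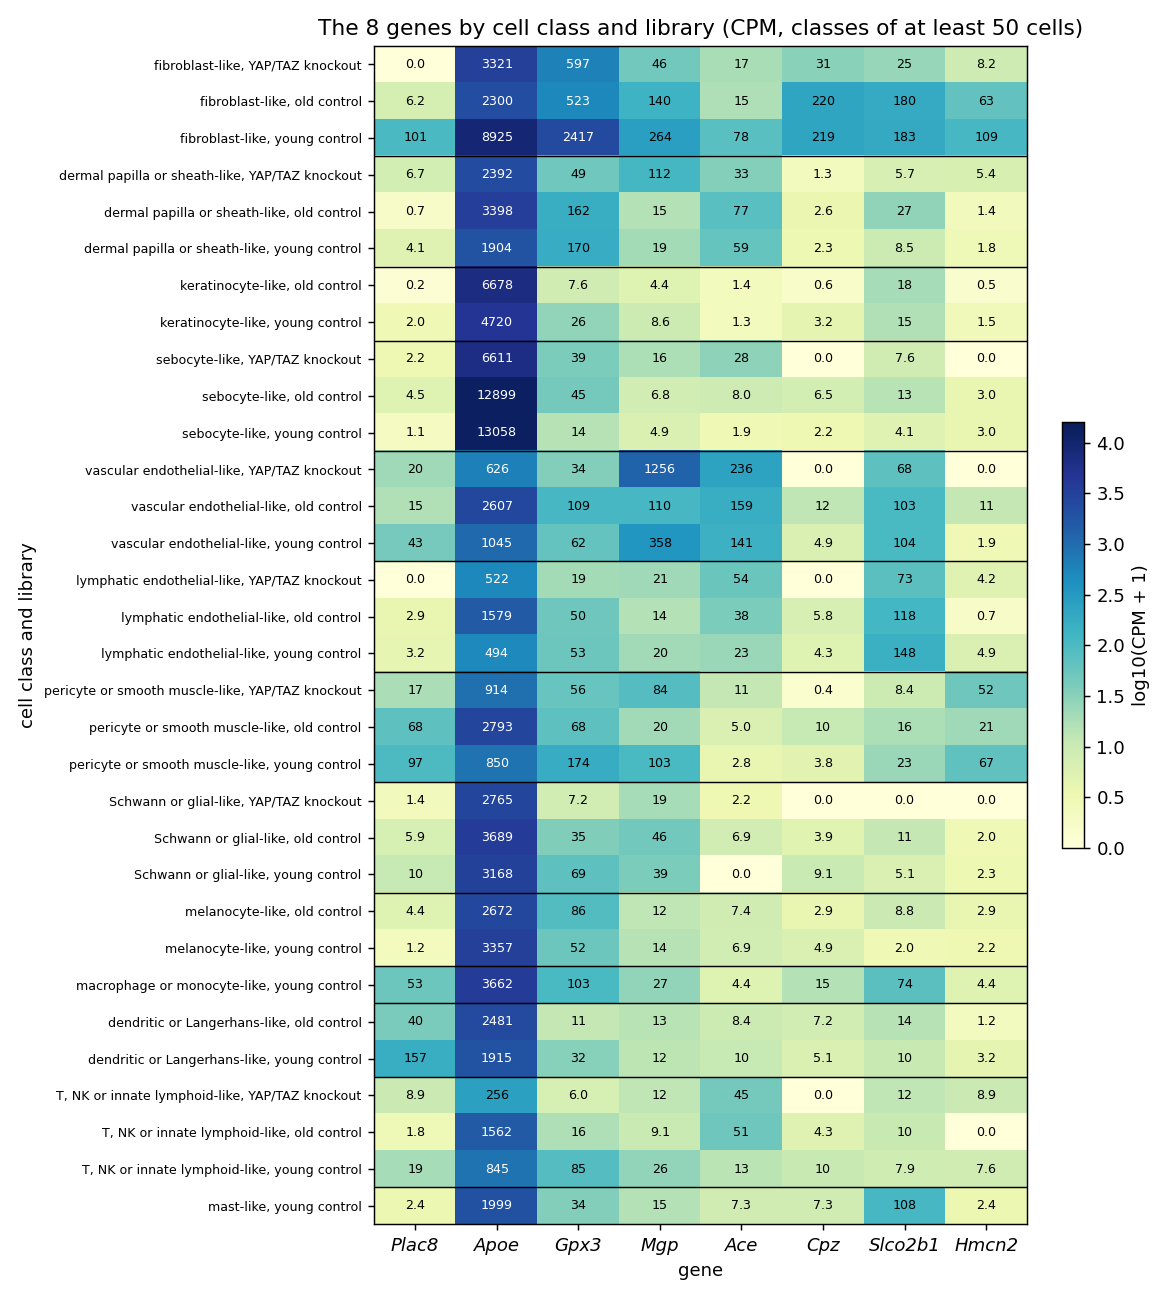
Level of each gene (CPM, printed in each cell, colour on a log10 scale) in every cell class with at least 50 cells in a library, with knockout above old control above young control in each class. Cpz stands out in fibroblast-like cells of both controls, Mgp and Ace in vascular endothelial-like cells, and Apoe is at or above 256 CPM in every class and library shown.

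Genes that work with the 8 were followed in fibroblast-like cells. Among 15 partners of Apoe in lipid transport, 10 passed the filter on low values. Apoc1, an apolipoprotein encoded beside Apoe, was lower in both, with 21.6 CPM in the knockout, 37.2 CPM in the old and 163 CPM in the young control. Lpl, lipoprotein lipase, was also lower, with 120.2 CPM in the knockout, 145 CPM in the old and 327 CPM in the young control. Srebf1, a regulator of lipid synthesis genes, was higher in the knockout, at 129 CPM against 33.7 CPM in the young control, where 4.17% of all genes were higher. Pltp, a phospholipid transfer protein, was higher in old skin, at 346 CPM against 169 CPM in young. Thus 2 of 10 were lower in the knockout, and 2 lower and 1 higher in old skin, where 1.76% of all genes were higher, with list medians of log2 ratio of -0.16 and 0.28 against 0.17 and 0.049 over all genes.

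Among 15 relatives of Gpx3 in antioxidant defence, all 15 passed the filter. Selenop, a selenium carrier, stood at 249 CPM in the knockout and 512 CPM in the young control (ratio 0.486), Cat, catalase, at 20.5 and 60.2 CPM (0.341), and Sod2, the mitochondrial superoxide dismutase, at 88.3 and 40.5 CPM (2.18). In old skin 0 of 15 met the size rule in either direction. Of the renin-angiotensin and kinin list, 6 of 15 passed the filter. Agtr1a, an angiotensin II receptor, stood at 12.3 CPM in the knockout and 53.9 CPM in the young control (0.229), Anpep, an aminopeptidase, at 55.5 and 125 CPM (0.444), and Mme, neprilysin, at 177 and 76.3 CPM (2.32). Mme is also among the leading genes of cluster 22, which made up more of the knockout than of the young fibroblast-like cells. Of 13 genes of mineralisation and vitamin K dependent carboxylation, 6 passed the filter, and Bmp4 was lower (93.5 CPM in the knockout, 189 CPM in the young control) and Bmp2 higher (64.7 and 21.7 CPM) in the knockout. In old skin 0 of the 6 genes met the rule in either list. Of the 6 carboxypeptidase relatives of Cpz and the 7 hemicentin and fibulin relatives of Hmcn2 that passed the filter, 0 met the rule in knockout or old skin. Of all genes 3.82% were lower and 4.17% higher in the knockout, and 2.15% and 1.76% in old skin, so a count of 0 among so few genes is near that background. Of 2 organic anion transporters tested beside Slco2b1, Slco2a1, a prostaglandin transporter, was lower in old skin at 16.0 CPM against 46.6 CPM in young (0.344).

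Patterns of the 8 genes across 32 points, each a cell class in a library, were set beside those of all 6093 genes by Pearson correlation of log2(CPM + 1). The points share libraries and free RNA, so the values are a description. Cpz was most like Clec3b (r = 0.94), Pi16 (0.91) and Ifi205 (0.90). Gpx3 was most like Ctsk (0.91), Htra3 (0.90) and Mmp11 (0.89), and Mgp was most like Sulf1 (0.88), Cxcl12 (0.82) and Vcam1 (0.81). Likeness was weaker for Apoe (Serf1 0.83, Efs 0.80, Idh1 0.79), Hmcn2 (Adam33 0.80, Itga11 0.79), Slco2b1 (Agtrap 0.80, Clec2d 0.78, Lgals9 0.78), Ace (Map3k3 0.79, Plvap 0.78, S100a13 0.76) and Plac8 (Gpcpd1 0.76, H2-Aa 0.68, Cd74 0.67). Among the 8 themselves the closest pair was Gpx3 with Cpz (0.76), and Apoe with Ace ran most opposite (-0.39).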

How the data were processed

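Dorsal skin was dissociated with collagenase I and captured with the 10x Chromium 3' v3.1 kit, per the labels' protocols. What the authors deposited are unnormalized UMI counts for each gene in each barcode. Per the file headers, Cell Ranger 3.1.0 wrote them, and the submitters' processing notes also name mm10 and Seurat 3.1.5. The way barcodes were picked before deposit is not given in these sources. Cells needed at least 500 genes, 1000 UMIs and no more than 15% mitochondrial UMIs. Scrublet (scanpy 1.11.5) marked 0%, 0.0166% and 3.55% of knockout, old and young barcodes automatically, so the 8% with the highest scores were removed from each library, a choice made after that result was seen. The 3 libraries were clustered jointly, with no batch correction and without the 8 genes (counts scaled to 10000, 2000 variable genes, 30 principal components, 20 neighbours, Leiden resolution 1, leidenalg 0.10.2). Clusters were named from marker lists, with a margin and a mixed-marker limit chosen once the cluster tables were known. A difference from other accounts of these cells may come from these rebuilt names. Class sums were compared as CPM, with exact binomial intervals for ratios, exact Poisson intervals for levels and Clopper-Pearson intervals for shares, all at 95%. UMIs limit but do not remove dependence between reads, and the intervals leave out differences between animals. The rule for named genes took the 8 genes, partner genes past the size rule (at most 6 per list) and the 3 most similar genes of each; 2 of the genes so named are not reported here. The 8 genes and all lists were chosen with earlier results of these data known. TMM factors came from edgeR 4.0.16. Coordinates are from GENCODE M21 on GRCm38, the assembly named by mm10, and count from 1. The ratio and size rule were tried on simulated Poisson counts. These hold no differences between animals or cells, so the trial bears on counting error only. Alternatives covered clustering genes, doublets, cell filter, naming, cluster proportions, depth, free RNA, scaling and the size rule.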

Additional observations from a re-analysis of the deposited data

Results flagged for a closer look

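Several genes that were lower in fibroblast-like cells were higher in another cluster under the same contrast. With 1 library per group these differences between cell types were not tested. In the knockout, Apoe was higher in cluster 31, macrophage or monocyte-like, at 31965 CPM in 40 knockout cells, 6966 CPM in 27 old cells and 3662 CPM in 184 young cells, a knockout-to-young ratio of 8.73 (2.92% of genes there were higher). A single knockout cell held 44.0% of those Apoe UMIs, the level without it was 19543 CPM, and the median knockout cell stood at 5124 CPM against 3188 CPM in the young control. Plac8 was higher in cluster 20, dendritic or Langerhans-like, at 1251 CPM in 23 knockout cells, 114 CPM in 134 old cells and 276 CPM in 546 young cells, a knockout-to-young ratio of 4.52 (2.86% higher), with UMIs in 7 of the 23 knockout cells. In the same cluster Ace gave 20 UMIs in 3 knockout cells, a ratio of 4.87 to the young control. Mgp was higher in the knockout in cluster 11, vascular endothelial-like, with a ratio of 3.51, and Hmcn2 in cluster 24, pericyte or smooth muscle-like, with a ratio of 2.91, at 120.5 CPM in 86 knockout and 41.4 CPM in 326 young cells (1.93% higher). In cluster 10, which held 725 of the 811 knockout cells of that class, Hmcn2 was lower in the knockout, at 36.3 CPM in knockout and 117 CPM in young cells, a ratio of 0.309 (0.223 to 0.427), where 2.42% of genes were lower.

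In old skin Apoe was higher than in the young control by the size rule in 6 clusters, in which 1.34% to 5.67% of genes were higher. Its old-to-young ratios were 4.04 in cluster 10 and 2.53 in cluster 24, both pericyte or smooth muscle-like, 2.50 in cluster 11, vascular endothelial-like, 3.19 in cluster 12, lymphatic endothelial-like, 2.24 in cluster 20, dendritic or Langerhans-like, and 2.59 in cluster 21, T, NK or innate lymphoid-like. Old cells were shallower in each of these clusters. Median depths in old and young cells were 1568.5 and 9233 UMIs in cluster 10, 1738 and 3444 in cluster 12, and 1882.5 and 6024 in cluster 20. A single young cell held 31.4% of the young Apoe UMIs in cluster 10. Without each library's top cell the levels there were 2975 CPM in old and 521 CPM in young cells. What part depth and free RNA had in these ratios was not tested. A single old cell held 49.0% of the Apoe UMIs in cluster 24 and 32.5% in cluster 20. Leaving out each library's top cell gave 1259 CPM in old and 879 CPM in young cells of cluster 24, and 915 CPM in old and 539.9 CPM in young cells of cluster 20, both short of 2-fold. The median old cell of cluster 24 stood at 576 CPM, below the 789.8 CPM of the median young cell. Gpx3 was higher in old sebocyte-like cells of cluster 13, at 44.5 CPM in old and 13.7 CPM in young cells, a ratio of 3.24 (3.9% higher). It was seen in 12.2% of old and 21.6% of young cells, at median depths of 1962 and 11295.5 UMIs. A single old cell gave 18 of the 149 old UMIs. The old level lay below the 82.3 CPM over all old cells kept, and what part free RNA had was not tested.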

How the results depend on the processing

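In the knockout 8 of 8 genes were lower under 11 of 16 alternatives, 7 with the 8 genes among the clustering genes, with the best class taken without naming rules or with a 3-fold rule, 4 with the young control's cluster proportions and 5 without cluster 18. Ace reversed without cluster 18, at a ratio of 1.66 from 5 UMIs. In old skin the count was 4, but 6 with libraries clustered alone, 5 with TMM or without cluster 22, 3 with the young cluster proportions and 2 without cluster 18. The knockout ratio of Mgp was 0.649 with the 8 genes among the clustering genes and 0.651 with the best class. The causes were not tested. All-gene counts, 233 lower and 254 higher in the knockout and 131 and 107 in old skin, moved with the filter and rule: 379 lower in the knockout and 220 lower and 214 higher in old skin at a mean of 5 CPM, 442 and 462 in the knockout and 302 and 324 in old skin with no minimum, 129 and 83 in the knockout and 51 and 23 in old skin at 3-fold, and 147 (knockout) and 79 (old) lower at equal depth. TMM gave 163 higher in the knockout, and leaving out cluster 2 gave 173 higher in old skin. Median-of-ratios scaling gave 40.4% higher among knockout calls and 34.7% among old ones. No paired analysis was possible because each group has 1 library. The 144 knockout cells limit precision: Hmcn2, Ace, Cpz and Slco2b1 rest on 8 to 30 UMIs there.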
